A study of Mus musculus with 12 samples.

Results

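Macrophages reside in the synovium, and the 36 genes described here mark those cells or serve the presentation of antigen on MHC class II molecules. They were read in cultures of mouse fibroblast-like synoviocytes (FLS), connective tissue cells that line the joint, as a measure of myeloid RNA in the cultures. The genes were taken by symbol from a deposited table of normalized counts for 53341 genes, and 28 of the 36, like 18139 genes in all, reached 10 normalized counts in 3 or more of the 12 libraries. The libraries fall into 4 groups of 3, all made from FLS of mice that the labels call SoxC, after the transcription factor genes Sox4, Sox11 and Sox12. SoxC_KO_TNF cells received an adenovirus with Cre recombinase (Ade5CMV-Cre) and recombinant human TNF, an inflammatory cytokine, at 10 ng/mL for 16 h. SoxC_KO cells received the Cre virus without TNF. The control_TNF cells received a virus with eGFP (Ade5CMV-eGFP) and the same TNF, and control cells the eGFP virus alone. All groups therefore carry an adenovirus whose name gives the CMV promoter, which is active in many cell types. Which part of each gene Cre removes is not stated. It is also not stated that the 3 libraries of a group are separate animals or cultures, and the p-values therefore reflect only how much these libraries vary, in part perhaps technically.

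In tissue, macrophages depend on the receptor Csf1r and the transcription factor Spi1 (PU.1). They take up debris through scavenger and Fc receptors, and they make the complement component C1q. Antigen taken up this way is cut by lysosomal proteases and displayed by MHC class II, a pair of an alpha and a beta chain that is guided through the cell by the invariant chain Cd74. Class II genes are switched on by the coactivator Ciita, which has no DNA binding of its own and sits on a set of factors bound to the paired X and Y boxes of their promoters. Fibroblasts make little class II RNA at rest, and interferon gamma is the best known inducer of it.

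The promoters of H2-Eb1, a class II beta chain gene, and H2-Aa, a class II alpha chain gene, show those boxes, and are given because their RNA levels, below, lay far under that of the beta chain gene H2-Ab1. Each run is the 250 bases before the start site in RefSeq's GRCm38.p6 annotation, written in the gene's direction. H2-Eb1 lies on the plus strand at chr17:34305617-34305866, and H2-Aa on the minus strand at chr17:34287824-34288073. Capitals mark an X box core (GCAACT) and a Y box core (CTGATTGG), in that order.
H2-Eb1: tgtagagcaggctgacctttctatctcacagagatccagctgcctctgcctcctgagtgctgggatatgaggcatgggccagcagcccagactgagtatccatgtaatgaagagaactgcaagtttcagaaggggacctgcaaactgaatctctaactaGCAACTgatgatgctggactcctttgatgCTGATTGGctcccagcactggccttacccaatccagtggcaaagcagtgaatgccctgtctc
H2-Aa: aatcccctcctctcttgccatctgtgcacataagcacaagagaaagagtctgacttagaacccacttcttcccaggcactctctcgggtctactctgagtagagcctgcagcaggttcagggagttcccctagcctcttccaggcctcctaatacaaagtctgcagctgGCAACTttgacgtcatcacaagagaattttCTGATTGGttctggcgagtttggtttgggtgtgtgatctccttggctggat
In H2-Eb1 the Y box core lies at -62 to -55 and the X box core at -91 to -86, with 23 bases between them. In H2-Aa the positions are -51 to -44 and -81 to -76, with 24 bases between. Searched on both strands of the 32851 promoter windows, CTGATTGG was found in 3.83%, GCAACT in 9.01% and both in 0.341% (112 windows). Of the 26 symbols found in the promoter table, H2-Aa and H2-Eb1 held both, and Cd53, Fcgr1 and Itgax held GCAACT alone. Only these exact letters were searched. The lack of a match for H2-Ab1 and Cd74 therefore does not show that their promoters lack the boxes.

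The promoters of Ctss, which encodes the lysosomal protease cathepsin S, and Trem2, a lipid-binding receptor of macrophages, stand for members whose RNA was higher in the libraries numbered 3. Their 250-base windows lie on the plus strand at chr3:95526536-95526785 and chr17:48346151-48346400. Capitals mark GAGGAA, a purine-rich core of the kind Spi1 binds, or its reverse complement TTCCTC.
Ctss: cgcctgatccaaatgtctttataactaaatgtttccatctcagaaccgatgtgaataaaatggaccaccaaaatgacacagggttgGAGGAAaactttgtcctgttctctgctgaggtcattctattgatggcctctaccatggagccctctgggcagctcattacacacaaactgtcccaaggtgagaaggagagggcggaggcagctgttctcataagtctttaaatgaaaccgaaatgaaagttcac
Trem2: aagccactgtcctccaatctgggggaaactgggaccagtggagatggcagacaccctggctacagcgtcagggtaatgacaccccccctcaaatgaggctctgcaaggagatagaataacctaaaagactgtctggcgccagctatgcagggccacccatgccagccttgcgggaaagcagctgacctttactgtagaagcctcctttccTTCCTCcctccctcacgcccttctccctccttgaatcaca
The core lies at -164 to -159 in Ctss and, on the other strand, at -40 to -35 in Trem2. It was found on either strand in 23.2% of all promoter windows and in windows of 13 of the 26 symbols matched. Among them were Cd53, Fcgr3, C1qb and C1qc. Cd68, Itgam and Laptm5 also held it, and their RNA was not called higher in the libraries numbered 3. Mrc1 held it too, and its RNA was lower in the libraries numbered 3 than in those numbered 2. The remaining carriers, Aif1, Fcgr1 and Ptprc, did not pass the filter. These matches describe letters in a window and are not measured binding sites.

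The libraries numbered 3, 1 from each group, stood apart over all genes. They lay, on a first principal component that held 51.6% of the variance, between 28.5 and 120 and the other 8 between -52.7 and 6.13. The labels do not say what a replicate number stands for. Estimated depth was 8.43 to 13.0 M read pairs in the libraries numbered 3 and 8.14 to 13.7 M in the other 8. SoxC_KO_TNF replicate 1 and control_TNF replicate 2 carried liver transcripts, with sums over 11 liver markers of 4535 and 675 normalized counts against 41.3 to 158 elsewhere. Sox4, one of the targeted genes, was at 601 to 1086 in SoxC_KO_TNF and 548 to 1433 in SoxC_KO, against 1625 to 3646 in control_TNF and 1857 to 4238 in control. Sox11 was at 29.5 to 105 in SoxC_KO_TNF and 26.8 to 175 in SoxC_KO, against 138 to 248 in control_TNF and 153 to 272 in control. Sox12 was at 86.5 to 159 in SoxC_KO_TNF and 194 to 259 in SoxC_KO, against 237 to 326 in control_TNF and 162 to 352 in control. Without TNF, the ranges of Sox11 and Sox12 overlapped between SoxC_KO and control.

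The 36 genes made up a small share of the RNA. Their summed normalized count was 3353 to 5446 in SoxC_KO_TNF, 2948 to 6274 in SoxC_KO, 2979 to 6250 in control_TNF and 2477 to 5429 in control, and 0.0116% to 0.0281% of a library's total. The median member past the filter had a mean of 49.1 normalized counts, against 284 over all genes past it, and 27.3% of those genes lay below that member. Per kb of exon, the lysozyme gene Lyz2 averaged 1019 normalized counts and the endotoxin co-receptor Cd14 273. Fibroblast genes stood higher on the same scale, the collagen gene Col1a1 at 21851 per kb, the intermediate filament gene Vim at 9438 and the PDGF receptor Pdgfrb at 1263. In the libraries numbered 3 the last order turned round, with Lyz2 at 1759.9 per kb and Pdgfrb at 860.1. In bulk RNA, fewer cells of a type and less RNA per cell cannot be told apart.

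The pan-leukocyte marker Ptprc, which encodes CD45, was near the lower end of what these libraries could detect. Here and below, the values of a group are normalized counts of its replicates 3, 2 and 1, in that order. Ptprc was at 19.1, 5.81 and 10.4 in SoxC_KO_TNF, at 8.05, 5.92 and 5.66 in SoxC_KO, then at 6.59, 4.75 and 5.97 in control_TNF, and at 0, 3.32 and 6.37 in control. The 12 libraries held an estimated 43.2 read pairs of it, at most 12.7 in 1 library, and its mean per kb was 0.373 normalized counts. Ptprc did not pass the filter, nor did 7 other members. Their highest normalized counts in any library were 16.6 for the calcium-binding protein Aif1, 10.8 for the high-affinity Fc receptor Fcgr1, 10.7 for the C1q chain C1qa and 9.39 for the chemokine receptor Cx3cr1. They were 7.92 for H2-Aa, 4.67 for Ciita and 3.97 for the haemoglobin scavenger receptor Cd163. C1qa was at 6.04, 7.74 and 2.59 in SoxC_KO_TNF, at 10.7, 8.85 and 5.11 in SoxC_KO, then at 10.5, 4.75 and 3.98 in control_TNF, and at 9.81, 4.98 and 3.19 in control. Those C1qa values were 1 to 5 estimated read pairs per library. In the same libraries the mean per kb was 1019 for Lyz2 and 165 for H2-Ab1.

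**Figure D1:**
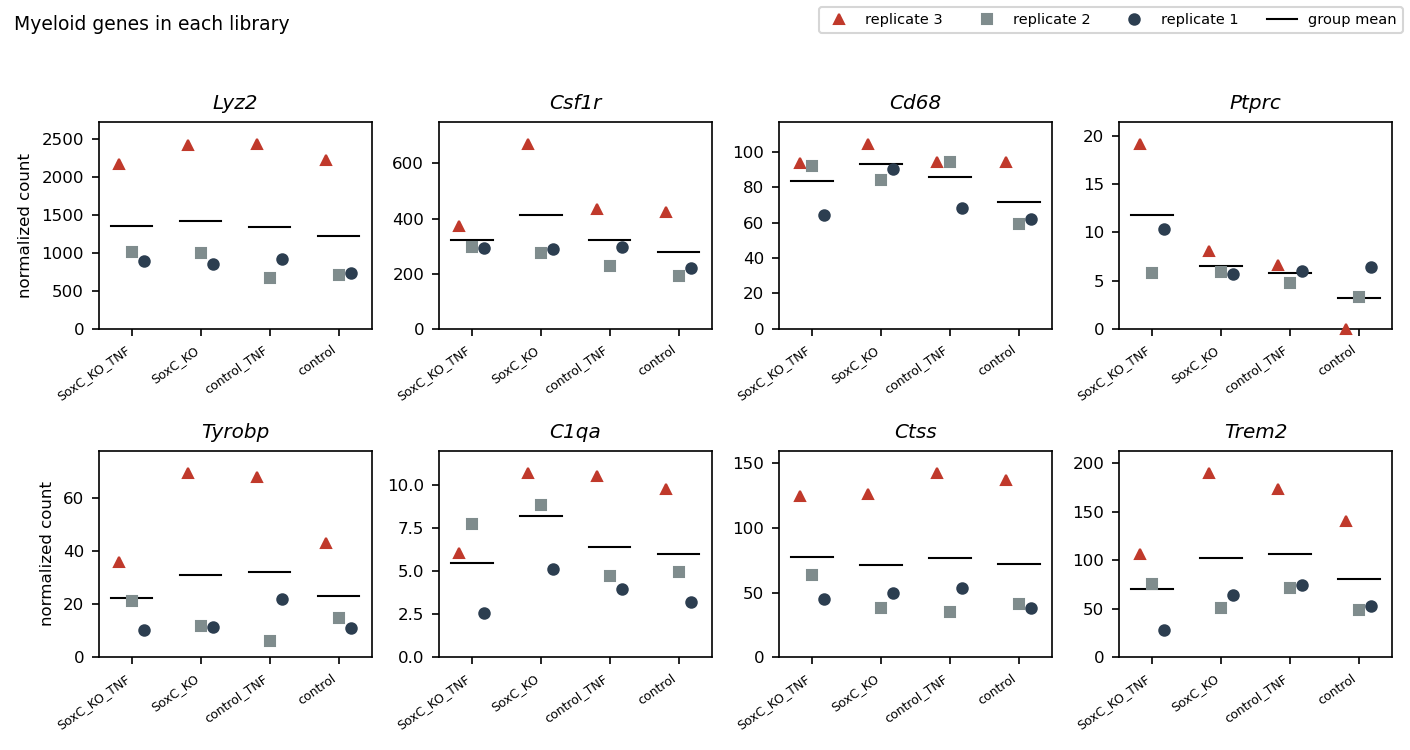
Normalized counts of selected macrophage genes in each of the 12 libraries, by group (horizontal axis), with 1 point per library shaped by replicate number and a line at the group mean. Lyz2 in the libraries numbered 3 lies between 2172 and 2438, above the other 8, which lie between 677 and 1014, while Ptprc stays at or under 19.1 throughout.

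The first comparison was between replicate numbers, with the group as a term in the model. Lyz2, Csf1r, Ctss, Trem2, Tyrobp and H2-Ab1 were higher in the 4 libraries numbered 3 than in those numbered 1 or 2, in every group. Across the 28 members, 14 differed with replicate number (50%; limma moderated F test, Benjamini-Hochberg adjusted over all 18139 genes), against 47.7% of all genes, so the share of members called was near that of all genes. The direction was less even. In number 3 minus number 1, 15 members were higher and 0 lower, with 22.1% of all genes higher and 25.2% lower. That count includes C1qc, which passed the filter largely through the libraries where it was high, and without it 14 of 27 members were higher. In number 3 minus number 2, 15 were higher and 1 lower, with 23.8% higher and 28.6% lower over all genes. The median member's log2 change was 0.86 in each, against -0.06 and -0.07 over all genes. In all, 12 members were higher in both and 9 passed in neither. Every library numbered 3 lay above every other library for 10 of 28 members (35.7%), against 13.8% of all genes, and number 3 was highest within each of the 4 groups for 14 (50%), against 23% of all genes. Between numbers 2 and 1, no member passed and none had an unadjusted p under 0.05, and no gene passed (0% of all, with 227 under an unadjusted 0.05). Quantile normalization moved the median change of all genes by 0.12 against number 1 and by 0.13 against number 2.

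Of 10 lineage genes tested, 5 were higher in number 3 than in number 1 (22.1% of all genes were) and 4 were higher than in number 2 (23.8% of all genes). Lyz2 was at 2172, 1014 and 898 in SoxC_KO_TNF, at 2425, 1002 and 859.6 in SoxC_KO, then at 2438, 677 and 918 in control_TNF, and at 2229, 712 and 739 in control. Lyz2 (chromosome 10, 117277331 to 117282321, minus strand, mm10) encodes the lysozyme of myeloid cells, and every library numbered 3 lay above every other library. Its mean was 2.71 times that of number 1 and 2.72 times that of number 2 (log2 change 1.44 and 1.47, SE 0.14 each, limma adjusted p = 5.7e-05 and 3e-05). Lyz1 is a near-identical neighbouring gene, and how reads shared by both were counted is unknown here. Csf1r was at 373, 297 and 292 in SoxC_KO_TNF, at 670.0, 275 and 289 in SoxC_KO, then at 436, 229.5 and 299 in control_TNF, and at 426, 193 and 220.3 in control. Csf1r, the receptor for the macrophage growth factor, also had each library numbered 3 above the other 8, at 1.73 and 1.92 times numbers 1 and 2. Csf1r overlaps Hmgxb3 on the opposite strand, which ran from 1090 to 1495 normalized counts. The strand setting is not given, so reads in that overlap cannot be told apart. Cd53 was at 117, 43.5 and 54.4 in SoxC_KO_TNF, at 55.8, 47.2 and 38.0 in SoxC_KO, then at 102, 36.4 and 51.4 in control_TNF, and at 97.6, 24.1 and 27.1 in control. Cd53, a leukocyte tetraspanin, showed the same separation, with log2 changes of 1.11 and 1.27. Coro1a was at 61.2, 36.8 and 22.6 in SoxC_KO_TNF, at 73.4, 34.6 and 30.2 in SoxC_KO, then at 89.7, 38.0 and 63.7 in control_TNF, and at 70.1, 26.2 and 28.7 in control. Coro1a, an actin-binding protein of leukocytes that overlaps Bola2 on the opposite strand, was higher by 1.10 on the log2 scale in each comparison, and SoxC_KO_TNF replicate 3 lay below control_TNF replicate 1.

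Spi1 was at 10.6, 11.6 and 6.47 in SoxC_KO_TNF, at 34.9, 21.7 and 13.2 in SoxC_KO, then at 22.5, 1.58 and 5.97 in control_TNF, and at 25.5, 8.30 and 3.19 in control. Spi1 passed against number 1 (log2 change 1.60) and not against number 2 (1.31, limma adjusted p = 0.0535), and its values rest on an estimated 1 to 13 read pairs per library. Cd68 was at 93.6, 92.4 and 64.3 in SoxC_KO_TNF, at 105, 84.1 and 90.5 in SoxC_KO, then at 94.7, 94.7 and 68.1 in control_TNF, and at 94.2, 59.5 and 62.1 in control. Cd68, a lysosomal membrane glycoprotein, was highest in number 3 of each group, by the widest margin in control, and passed in neither comparison (log2 change 0.45 and 0.25, limma adjusted p = 0.061 and 0.281). The other lineage genes did not pass in either comparison. Laptm5, a lysosomal protein of blood cells, ran from 114 to 323 normalized counts, the actin-bundling Lcp1 from 69.5 to 145 and the pore-forming Mpeg1 from 80.6 to 185. The integrin chain Itgam has a pair of rows in the table, of which its own identifier is listed at 0 throughout. The row with values, 30.8 to 66.0, carries the identifier of an overlapping gene model on the same strand (Gm49368), so its level is uncertain.

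Receptors of tissue macrophages were higher in number 3 for 4 of 7 tested against number 1 (22.1% of all genes) and for 4 of 7 against number 2 (23.8%). Trem2 was at 106, 76.0 and 28.5 in SoxC_KO_TNF, at 190.5, 51.3 and 64.1 in SoxC_KO, then at 174, 71.1 and 74.6 in control_TNF, and at 140.2, 48.7 and 53.0 in control. Trem2 was 2.77 and 2.47 times as high in number 3 as in numbers 1 and 2 (log2 change 1.504 and 1.28, SE 0.26 each, limma adjusted p = 0.000803 and 0.0015), with no overlap. Adgre1 was at 124, 85.2 and 79.6 in SoxC_KO_TNF, at 126, 93.2 and 104 in SoxC_KO, then at 144, 71.7 and 52.7 in control_TNF, and at 125, 95.9 and 55.0 in control. Adgre1 encodes F4/80, the common surface marker of mouse macrophages, and was higher by 0.88 and 0.58 on the log2 scale, again without overlap. Cd14 was at 675, 531 and 471 in SoxC_KO_TNF, at 605, 302 and 278 in SoxC_KO, then at 815, 404 and 534 in control_TNF, and at 508, 281 and 281 in control. Cd14, which fibroblasts also express, was higher by 0.77 and 0.80, with number 3 highest in each group. Ms4a7 was at 27.2, 14.5 and 2.59 in SoxC_KO_TNF, at 16.1, 15.8 and 20.7 in SoxC_KO, then at 26.4, 3.17 and 1.99 in control_TNF, and at 21.6, 3.32 and 3.19 in control. Ms4a7, a membrane protein of macrophages, was higher by 2.06 and 1.497 from low values, and SoxC_KO showed no such order. Mrc1 was at 16.6, 33.7 and 31.1 in SoxC_KO_TNF, at 0, 36.2 and 22.6 in SoxC_KO, then at 26.4, 42.0 and 27.9 in control_TNF, and at 20.6, 29.9 and 16.7 in control. Mrc1, the mannose receptor, was lower in number 3 than in number 2 (log2 change -1.84, SE 0.69, limma adjusted p = 0.0413), and its fit includes SoxC_KO replicate 3, listed at 0. Without that library the change was -0.73 (adjusted p = 0.0559). The scavenger receptor Msr1 and the integrin Itgax, which ran from 3.32 to 23.2, did not pass in either.

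Per kb, the C1q genes C1qb and C1qc averaged 13.7 and 5.20 normalized counts, and the Fc receptor group ran from 22.5 for Fcgr3 to 40.7 for Tyrobp. C1qb was at 12.1, 9.68 and 2.59 in SoxC_KO_TNF, at 24.1, 17.8 and 7.54 in SoxC_KO, then at 29.0, 7.92 and 15.9 in control_TNF, and at 25.5, 14.9 and 11.6 in control. C1qb passed against number 1 (log2 change 1.33, limma adjusted p = 0.0186) and not against number 2 (0.80, adjusted p = 0.12). C1qc was at 10.6, 7.74 and 2.59 in SoxC_KO_TNF, at 18.8, 7.89 and 5.66 in SoxC_KO, then at 13.2, 7.13 and 13.9 in control_TNF, and at 21.6, 6.64 and 4.78 in control. C1qc had 1.29 against number 1 (adjusted p = 0.0336) and 0.98 against number 2 (adjusted p = 0.0863). It reached 10 in only 1 of the 8 libraries numbered 1 or 2, so it entered the test largely through the libraries where it was high. Tyrobp was at 35.8, 21.3 and 10.4 in SoxC_KO_TNF, at 69.8, 11.8 and 11.3 in SoxC_KO, then at 68.3, 6.34 and 21.9 in control_TNF, and at 43.1, 14.9 and 11.2 in control. Tyrobp, the signalling adaptor that pairs with Trem2, had the largest ratios among the 28 members, at 3.96 and 3.99 times numbers 1 and 2 (log2 change 1.92 and 1.97, SE 0.41 each, limma adjusted p = 0.0028 and 0.00187). Fcgr3 was at 57.4, 29.5 and 31.1 in SoxC_KO_TNF, at 54.3, 40.0 and 24.8 in SoxC_KO, then at 77.8, 21.8 and 21.9 in control_TNF, and at 66.2, 17.4 and 27.1 in control. Fcgr3, an activating low-affinity receptor for IgG, was higher by 1.25 and 1.26 with no overlap. Fcer1g was at 50.6, 36.9 and 34.9 in SoxC_KO_TNF, at 46.1, 25.5 and 27.9 in SoxC_KO, then at 34.5, 26.8 and 36.8 in control_TNF, and at 36.9, 18.3 and 22.1 in control. Fcer1g, the signalling chain shared by Fc receptors, passed against number 2 only (0.65, adjusted p = 0.0361, against 0.46 and 0.128 for number 1).

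Among effector genes, Ctss was at 125, 63.3 and 45.3 in SoxC_KO_TNF, at 126, 38.4 and 49.96 in SoxC_KO, then at 143, 34.8 and 53.7 in control_TNF, and at 137, 41.5 and 38.2 in control. Ctss, which trims the invariant chain in lysosomes, was 2.84 and 2.98 times as high in number 3 (log2 change 1.49 and 1.59, SE 0.22 each, limma adjusted p = 0.000325 and 0.000143), with no overlap. Ncf1 was at 23.4, 5.81 and 12.2 in SoxC_KO_TNF, at 22.8, 9.65 and 14.6 in SoxC_KO, then at 17.4, 4.49 and 7.80 in control_TNF, and at 14.9, 14.5 and 5.95 in control. Ncf1, the organizer subunit of the phagocyte NADPH oxidase, passed against number 2 (1.198, adjusted p = 0.0278) and not number 1 (0.94, adjusted p = 0.0789). Ncf1 overlaps Gtf2ird2 on the opposite strand, and reads in that overlap cannot be told apart, because the strand setting is not given. Cybb, the catalytic subunit of the same enzyme, did not follow number (log2 change -0.29 and -0.32).

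**Figure D2:**
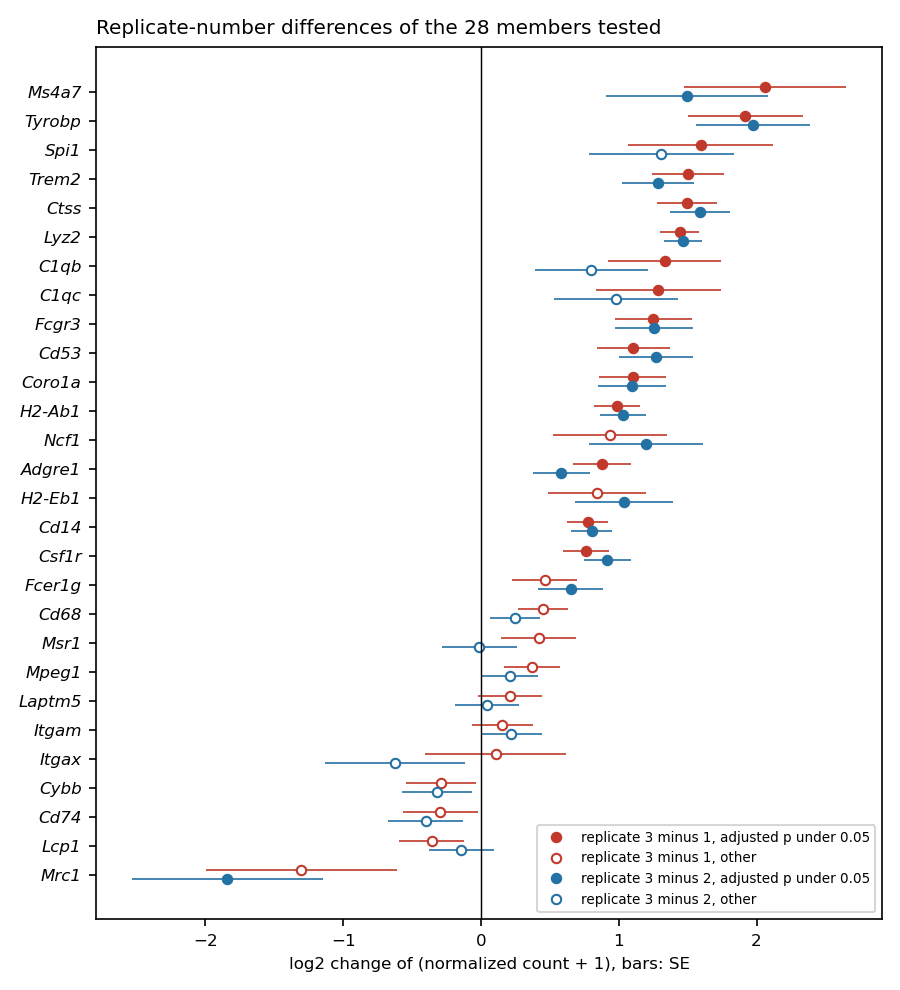
Log2 change of each of the 28 members past the filter between libraries numbered 3 and those numbered 1 or 2 (horizontal axis, log2 of normalized count plus 1), with bars of 1 SE. Tyrobp, Ms4a7, Ctss and Lyz2 lie well above 0, and Mrc1 lies lowest at -1.30 and -1.84.

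MHC class II genes were far from equal. H2-Ab1 was at 466, 345 and 291 in SoxC_KO_TNF, at 821, 351 and 329 in SoxC_KO, then at 623, 268 and 384 in control_TNF, and at 654, 273 and 272 in control. H2-Ab1 (chromosome 17, 34263209 to 34269418, plus strand), the I-A beta chain, averaged 165 normalized counts per kb, and number 3 was 2.01 and 2.07 times as high as numbers 1 and 2 (log2 change 0.99 and 1.03, SE 0.17 each, limma adjusted p = 0.00078 and 0.000416), with no overlap. H2-Aa was at 0, 1.94 and 1.29 in SoxC_KO_TNF, at 4.02, 1.97 and 0 in SoxC_KO, then at 0, 7.92 and 0 in control_TNF, and at 0, 1.66 and 1.59 in control. H2-Aa, the alpha chain that pairs with H2-Ab1, averaged 0.448 per kb, with an estimated 11 read pairs over all 12 libraries. Ciita was at 3.02, 4.67 and 0 in SoxC_KO_TNF, at 0, 3.18 and 2.24 in SoxC_KO, then at 2.64, 1.84 and 3.32 in control_TNF, and at 0, 1.66 and 2.67 in control. Ciita, whose gene overlaps Dexi on the opposite strand, averaged 0.221 per kb. Reads in that overlap cannot be told from those of Dexi without the strand. H2-Eb1 was at 21.2, 15.5 and 23.3 in SoxC_KO_TNF, at 64.2, 17.8 and 14.1 in SoxC_KO, then at 56.2, 38.7 and 30.8 in control_TNF, and at 23.8, 8.30 and 15.9 in control. H2-Eb1, the I-E beta chain at 14.1 per kb, was higher in number 3 than in number 2 (1.04, limma adjusted p = 0.027) and missed the threshold against number 1 (0.84, adjusted p = 0.069). Cd74 was at 39.1, 67.7 and 75.1 in SoxC_KO_TNF, at 30.2, 27.6 and 18.9 in SoxC_KO, then at 67.2, 75.2 and 100.4 in control_TNF, and at 21.6, 38.2 and 27.4 in control. Cd74, at 29.2 per kb, did not follow number (log2 change -0.29 and -0.40), and the next comparison gives its difference with TNF.

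**Figure D3:**
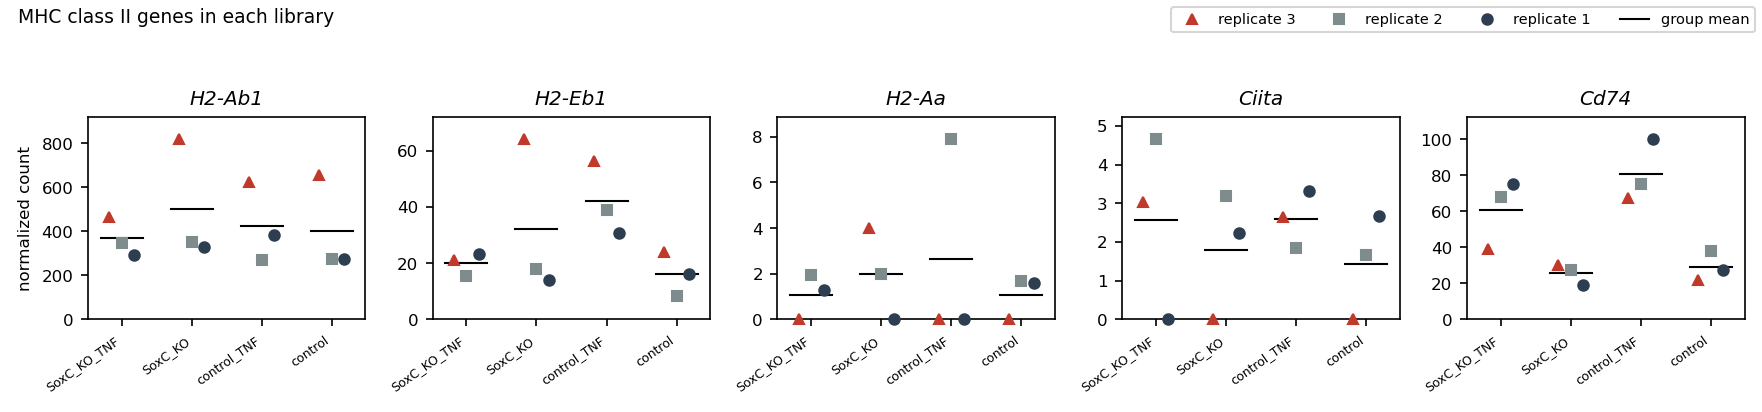
Normalized counts of the MHC class II genes in each of the 12 libraries, by group (horizontal axis), with 1 point per library shaped by replicate number and a line at the group mean. H2-Ab1 runs from 268 to 821, with number 3 highest in each group, whereas H2-Aa stays at or under 7.92 and Ciita at or under 4.67.

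Of the 12 members higher in both number comparisons, 10 stayed past the threshold in each alternative setting in which they were tested, including each library left out in turn. These were Lyz2, Csf1r, Cd53, Coro1a, Trem2, Cd14, Tyrobp, Fcgr3, Ctss and H2-Ab1. Adgre1 against number 1 also passed in each. The other 10 calls were lost when single libraries were left out, and the log2 change without them is given beside the adjusted p. Spi1 against number 1 did not pass without SoxC_KO replicate 1, control_TNF replicate 3 or control replicate 1 or 3 (log2 change 1.26 to 1.57, limma adjusted p from 0.0662 to 0.106). C1qb against number 1 did not pass without SoxC_KO_TNF replicate 1, SoxC_KO replicate 1 or control_TNF replicate 3 (log2 change 1.07 to 1.26, limma adjusted p from 0.0596 to 0.0669). C1qc against number 1 did not pass without SoxC_KO_TNF replicate 1 or 3, SoxC_KO replicate 1 or 3 or control replicate 1 or 3 (log2 change 1.06 to 1.32, limma adjusted p from 0.0557 to 0.125). Ms4a7 against number 1 did not pass without SoxC_KO_TNF replicate 1, control_TNF replicate 3 or control replicate 3 (log2 change 1.65 to 1.85, limma adjusted p from 0.0516 to 0.0609). Fcer1g against number 2 did not pass without SoxC_KO_TNF replicate 3, SoxC_KO replicate 2 or 3, control_TNF replicate 2 or control replicate 2 or 3 (log2 change 0.56 to 0.67, limma adjusted p from 0.0558 to 0.122). Mrc1 against number 2 did not pass without SoxC_KO_TNF replicate 1, SoxC_KO replicate 2 or 3, control_TNF replicate 1 or 2 or control replicate 2 (log2 change -2.03 to -0.73, limma adjusted p from 0.0529 to 0.17). Ncf1 against number 2 did not pass without SoxC_KO_TNF replicate 2 or 3, SoxC_KO replicate 2 or control_TNF replicate 2 or 3 (log2 change 0.97 to 1.16, limma adjusted p from 0.0713 to 0.0912). H2-Eb1 against number 2 did not pass without SoxC_KO replicate 2 or 3 or control replicate 2 or 3 (log2 change 0.70 to 1.03, limma adjusted p from 0.0662 to 0.117). Adgre1 against number 2 did not pass without SoxC_KO_TNF replicate 2, SoxC_KO replicate 2, control_TNF replicate 2 or 3 or control replicate 3 (log2 change 0.42 to 0.57, limma adjusted p from 0.067 to 0.145). Ms4a7 against number 2 did not pass without SoxC_KO_TNF replicate 3, SoxC_KO replicate 2, control_TNF replicate 1, 2 or 3 or control replicate 1, 2 or 3 (log2 change 1.11 to 1.59, limma adjusted p from 0.0562 to 0.184).

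Genes outside the 36 moved with the same split. Of 41 further macrophage genes tested, 13 were higher and 3 lower in number 3 than in number 1, with 22.1% of all genes higher and 25.2% lower. The largest increases were those of the C-type lectin Clec4d (log2 change 1.99), the inhibitory receptor Cd300lf (1.90, limma adjusted p = 0.0484) and the C-type lectin Clec4n (1.46). Against number 2, Clec4d and Clec4n passed (1.96 and 1.54) and Cd300lf did not (1.44, limma adjusted p = 0.115). Clec7a, Fermt3 and Slc11a1, also among the 13, missed the threshold against number 2 as well (limma adjusted p = 0.141, 0.0999 and 0.0685). The 3 lower genes were Maf (-1.08, limma adjusted p = 8.01e-05), Cd180 (-1.15, adjusted p = 0.0396) and Lyn (-0.53, adjusted p = 0.00468). Among NADPH oxidase partners, 2 of 4 were higher (Ncf4 1.92, Cyba 1.38), and of 5 genes that assist class II loading, 4 were higher (H2-DMb1 0.90, H2-DMa 0.85, Ctsl 0.67, Ifi30 0.43). Of 8 genes listed for the X and Y boxes, Rfxank was higher (0.86) and Creb1 (-0.88), Nlrc5 (-0.56) and Rfx5 (-0.43) were lower. Nlrc5 in that list is a coactivator and not a factor bound to the boxes. Of 4 neutrophil genes tested, 2 were higher (S100a8 1.98, Camp 1.14), and the 12-gene sum was 1458 to 2409 normalized counts in number 3, against 546 to 1051 in number 2 and 548 to 1500 in number 1. Of 13 fibroblast genes, 8 were lower, among them the lubricin gene Prg4 (-1.42), Col1a1 (-1.17), Col3a1 (-1.06) and Col1a2 (-1.02), and 0 higher. The fibroblast sum was 209957 to 395434 in number 3, against 462431 to 532872 in number 2 and 405555 to 570515 in number 1. Sums for 9 T cell markers were 23.7 to 60.1 in number 3 and 27.2 to 54.9 in number 1, and for 7 B cell markers 8.22 to 36.9 and 22.9 to 53.0. Of 2 T cell genes tested, Cd8a was lower (-1.34), and of 2 erythroid and platelet genes, Ppbp was lower (-0.38). Of the remaining lists, higher and lower genes in number 3 minus number 1 numbered 2 and 3 of 9 for the interferon gamma list (Irf1 0.49, Jak2 -1.49), 1 and 2 of 6 for monocytes (Plac8 0.96, Vcan -1.96) and 2 and 1 of 8 for osteoclasts (Ctsk 0.99, Nfatc1 -0.99). They numbered 1 and 1 of 8 for endothelium (Egfl7 1.202, Tek -0.73), 0 and 3 of 7 for muscle (Myh4 -4.49), and 1 and 0 of 3 for dendritic cells (Bst2 0.68). Tek and Myh4 did not pass against number 2 (limma adjusted p = 0.0879 and 0.0527). The part of these lists in the members' differences was not tested.

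TNF changed few of the members. Over both genotypes, 3 of 28 rose with TNF and 0 fell (10.7%; limma, Benjamini-Hochberg adjusted), against 1.17% of all genes, 0.877% of them higher. These were Cybb, Cd74 and Msr1, and in each all 6 TNF libraries lay above all 6 without TNF, as for 1.48% of all genes. The median member's log2 change was 0.04, against -0.001 over all genes. Within SoxC_KO cells 1 member passed, Cybb (0.292% of all genes passed), and within control cells 0 passed (0.32% of all genes), with 4 under an unadjusted p of 0.05. With the replicate number as a block, 2 passed in each, Cybb and Msr1 in SoxC_KO (2.78% of all genes) and Cybb and Cd74 in control (1.71%), and 4 passed over both genotypes (5.19%), Cd14 being the fourth.

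Cybb was at 290.1, 279.6 and 297 in SoxC_KO_TNF, at 37.6, 76.0 and 93.8 in SoxC_KO, then at 161, 270.1 and 181 in control_TNF, and at 78.5, 58.5 and 62.1 in control. Cybb (chromosome X, 9435252 to 9487771, minus strand), the membrane-bound catalytic subunit of the phagocyte NADPH oxidase, averaged 289 ± 8.57 in SoxC_KO_TNF and 69.1 ± 28.7 in SoxC_KO, with 204 ± 58.3 in control_TNF and 66.4 ± 10.6 in control (SD, n = 3 each). That was 4.18-fold higher with TNF in SoxC_KO cells and 3.07-fold in control cells. On the log2 scale the average TNF change was 1.86 (SE 0.23, limma adjusted p = 0.00242), 2.14 in SoxC_KO cells (SE 0.33, adjusted p = 0.0202) and 1.58 in control cells (SE 0.33, adjusted p = 0.104, and 0.0148 with the block). The average change passed in all 22 alternative settings, with limma adjusted p from 0.000167 to 0.0234. The call within SoxC_KO cells was lost without SoxC_KO_TNF replicate 1, 2 or 3 (limma adjusted p = 0.107, 0.106 and 0.0915), without SoxC_KO replicate 2 (0.0518), and without the pair of libraries with liver transcripts (0.118). Without the libraries numbered 3 the average change was 1.81 (adjusted p = 0.000475).

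Cd74 was at 39.1, 67.7 and 75.1 in SoxC_KO_TNF, at 30.2, 27.6 and 18.9 in SoxC_KO, then at 67.2, 75.2 and 100.4 in control_TNF, and at 21.6, 38.2 and 27.4 in control. Cd74 averaged 60.6 ± 18.996 in SoxC_KO_TNF and 25.6 ± 5.94 in SoxC_KO, with 80.9 ± 17.3 in control_TNF and 29.1 ± 8.42 in control (SD, n = 3 each), with no overlap between treated and untreated libraries. The average log2 change was 1.33 (SE 0.24, limma adjusted p = 0.0205), with 1.19 in SoxC_KO cells (adjusted p = 0.289) and 1.46 in control cells (adjusted p = 0.17, and 0.0338 with the block). Without the libraries numbered 3 it was 1.499 (adjusted p = 0.00599). The call was lost without SoxC_KO_TNF replicate 1 or 2, SoxC_KO replicate 1, control_TNF replicate 1 or 2, or control replicate 1 (limma adjusted p = 0.0631, 0.0699, 0.0597, 0.0721, 0.051 and 0.068). Without both libraries that carried liver transcripts it was 1.26 (adjusted p = 0.127). The class II beta chain H2-Ab1 averaged 367 ± 89.6 in SoxC_KO_TNF and 501 ± 278 in SoxC_KO, with 425 ± 181 in control_TNF and 400 ± 220 in control (SD, n = 3 each), and its groups overlapped.

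Msr1 was at 53.6, 48.9 and 41.1 in SoxC_KO_TNF, at 13.4, 25.2 and 15.1 in SoxC_KO, then at 44.5, 36.4 and 29.8 in control_TNF, and at 24.5, 18.3 and 12.7 in control. Msr1, a scavenger receptor for modified lipoproteins, averaged 47.9 ± 6.35 in SoxC_KO_TNF and 17.9 ± 6.39 in SoxC_KO, with 36.9 ± 7.34 in control_TNF and 18.5 ± 5.89 in control (SD, n = 3 each). The average log2 change was 1.199 (SE 0.24, limma adjusted p = 0.0358), with 1.41 in SoxC_KO cells (adjusted p = 0.168, and 0.0334 with the block) and 0.99 in control cells (adjusted p = 0.701). It was the least firm of the calls, lost in 13 of 21 alternative settings. The call did not hold without any of the 3 SoxC_KO_TNF or the 3 control_TNF libraries, nor without SoxC_KO replicate 1 or 3 or control replicate 1 or 2 (limma adjusted p from 0.056 to 0.107). Without the libraries numbered 3 the change was 1.11 (adjusted p = 0.0596).

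Cd14 had an average log2 change of 0.64 with TNF and missed the threshold (SE 0.26, limma adjusted p = 0.492), with 0.00799 under the block and 0.0115 without the libraries numbered 3. Mrc1 had the widest error among members (SE 0.74 on the log2 scale). Of the lineage genes 0 of 10 passed, with 0 under an unadjusted p of 0.05, and likewise 0 of 2 C1q genes and 0 of 3 Fc receptor genes. Lyz2, Csf1r, Tyrobp, Trem2 and Ctss, which followed replicate number, overlapped between TNF-treated and untreated libraries in both genotypes. Without overlap between 3 libraries and 3, Cybb, Cd74 and Msr1 were higher with TNF in SoxC_KO cells, where 6.43% of all genes were. So was Itgax, which is not counted with them, because it reached 10 normalized counts only in 3 libraries, all with TNF, and passed the filter through them. In the same cells Spi1 and Itgam were lower (7.14% of members, against 6.4% of all genes). In control cells Cybb, Cd74, Msr1 and H2-Eb1 were higher without overlap (14.3%, against 4.6%), and 0 were lower (against 4.11%). For each, the two-sided exact permutation test gave p = 0.1, the smallest that 3 against 3 allow.

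**Figure D4:**
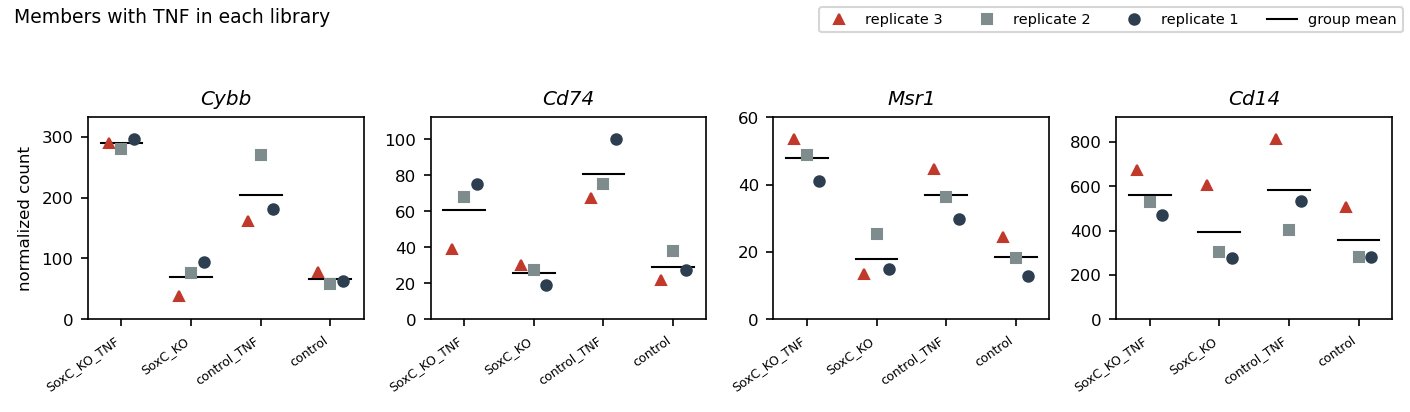
Normalized counts of Cybb, Cd74, Msr1 and Cd14 in each of the 12 libraries, by group (horizontal axis), with 1 point per library shaped by replicate number and a line at the group mean. Cybb lies between 161 and 297 with TNF and between 37.6 and 93.8 without it, whereas Cd14 with and without TNF overlap.

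**Figure D5:**
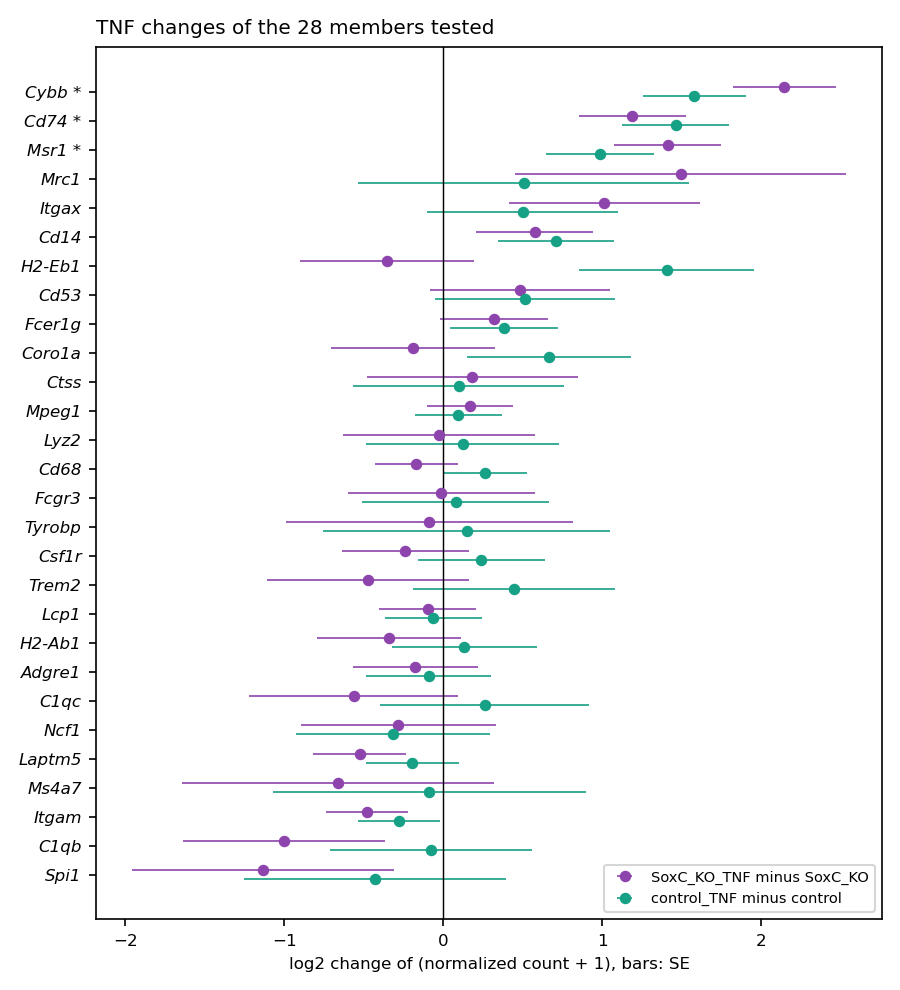
Log2 change with TNF of the 28 members past the filter, in SoxC_KO and in control cells (horizontal axis, log2 of normalized count plus 1), with bars of 1 SE and a star at members whose average TNF change passed. Cybb is highest in both genotypes at 2.14 and 1.58, and H2-Eb1 differs most in direction at -0.35 and 1.40.

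Of the genes on other lists, Gbp2 and Itgb3 passed within a genotype without the replicate block, and more did with it. Gbp2, an interferon-induced GTPase, rose by 1.51 on the log2 scale in SoxC_KO cells and 1.28 in control cells (limma adjusted p = 0.00626 and 0.0172), 1 of 9 genes of the interferon gamma list in each. The integrin Itgb3 was 1 of 8 osteoclast genes that rose in control cells (1.23, adjusted p = 0.0499). None passed among 41 further macrophage genes, 4 NADPH oxidase partners, 5 class II accessory genes, 8 genes listed for the X and Y boxes, or 6 monocyte genes in either genotype. Their most abundant genes were Axl (log2 change -0.02 in SoxC_KO and -0.01 in control cells), Cyba (-0.19 and 0.67), Ctsl (0.00 and 0.31), Nfya (0.15 and -0.03) and Fn1 (-0.46 and -0.49). With the block, Tfec of the 41 further macrophage genes rose in SoxC_KO cells (1.16, limma adjusted p = 0.0311), and Tfec and Slc11a1 rose in control cells (1.197 and 1.10, adjusted p = 0.0324 and 0.03). Of the interferon gamma list 3 of 9 then rose in each genotype, Gbp2, Irf1 and Jak2 in SoxC_KO cells and Gbp2, Irf1 and Ifngr2 in control cells. Of the 4 neutrophil genes S100a8 then rose in SoxC_KO cells (1.08, adjusted p = 0.0268), and S100a8 and Camp rose in control cells (1.45 and 0.93, adjusted p = 0.00512 and 0.0358). The part of these genes in the members' TNF differences was not tested.

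The knockout did not change any member past the threshold. In SoxC_KO_TNF minus control_TNF, 0 of 28 passed and 0 had an unadjusted p under 0.05, with log2 changes from -1.06 to 0.73, and 0% of all genes passed (233 under an unadjusted 0.05). In SoxC_KO minus control, 0 of 28 passed and 0 had an unadjusted p under 0.05, with log2 changes from -1.25 to 1.31, and again 0% of all genes passed (176 under an unadjusted 0.05). Without TNF, every member's groups overlapped. Of all genes, 2.39% lay higher without overlap and 1.98% lower. A single member would be 3.57% of the 28, so 0 does not set the members apart from those shares. The median member's change was 0.08 with TNF and 0.19 without it, against -0.004 and -0.01 over all genes. With the block these counts stayed at 0, and 4 and 1 members had an unadjusted p under 0.05. A missed threshold does not show that the genotypes had the same level: for Lyz2, Csf1r and H2-Ab1 each group spans the difference between its library numbered 3 and the rest. Averaged over both treatments, 0 of 28 passed as well, with log2 changes from -0.76 to 1.02.

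H2-Eb1 and Cybb were the members whose knockout and control libraries did not overlap with TNF. H2-Eb1 averaged 19.998 ± 4.01 in SoxC_KO_TNF and 41.9 ± 13.0 in control_TNF, and 32.0 ± 27.9 in SoxC_KO and 16.0 ± 7.73 in control (SD, n = 3 each). All 3 SoxC_KO_TNF libraries lay below all 3 control_TNF libraries (exact permutation test, two-sided p = 0.1), as for 2.34% of all genes and 1 of 28 members (3.57%). Cybb lay above without overlap in SoxC_KO_TNF, as for 2.82% of all genes. For the difference of the TNF changes between genotypes, 0 of 28 passed and 0% of all genes did (273 under an unadjusted 0.05). H2-Eb1 alone had an unadjusted p under 0.05 (difference -1.76 on the log2 scale, SE 0.78, limma adjusted p = 0.884, and 0.284 with the block).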

How the data were processed

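Poly(A) RNA was sequenced in 12 libraries on a NovaSeq, per the labels' protocols. The deposited table holds 1 log2 value per gene and library, which the authors had normalized, per the file headers. The authors used DESeq and the genome build mm10, per the submitters' processing notes. Not given in the sources used here: aligner, annotation, strand setting. The analysis plan had assumed linear values, so 2 was raised to each deposited log2 value (0 kept as 0) to give normalized counts. Values at or under 1 are listed as 0.

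Normalized totals were 19.6 to 23.1 M. One read pair was worth 1.51 to 2.68 normalized counts, read from the commonest low value, so read pair numbers are rough and low genes carry large counting error. No 2 libraries held identical values.

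Genes at 10 or more in at least 3 libraries were kept. A limma 3.58.1 model (R 4.3.3, statmod 1.5.0) was fitted to log2(normalized count + 1), which understates changes of low genes, with 1 mean per group over all 12 libraries, an intensity trend and Benjamini-Hochberg adjustment over 18139 genes at 0.05. Replicate numbers were compared with the group in the model. The fit was tested on simulated data. Figures used Python 3.11.15 and matplotlib 3.10.9.

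Same-numbered libraries deviated together (r = 0.340, 0.148 and 0.501 for TNF in SoxC_KO, and 0.103, 0.550 and 0.715 in control). Between SoxC_KO_TNF and control_TNF, r was 0.0537, 0.189 and 0.526, so the cutoff of 0.1 was missed and the block there is no pairing. Libraries numbered 3 alone could give such values.

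The 36 members and 17 other gene lists were chosen with earlier results of these data known. Named with each library's value were 13 members fixed by rule and each other member past the threshold in any comparison, and other lists were named by up to 4 called genes or their most abundant one. Alternatives covered the pseudocount, filter, trend, scaling, replicate block and left-out libraries. Sequences came from RefSeq's GRCm38.p6 promoter table, which matched 26 of the 36 symbols.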

Additional observations from a re-analysis of the deposited data

How the results depend on the processing

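With each library left out in turn, 0 to 1 members passed for TNF in SoxC_KO (0 without any SoxC_KO_TNF replicate or SoxC_KO replicate 2), 0 to 1 for TNF in control (1 without SoxC_KO replicate 3), 1 to 3 for the average TNF change and 10 to 14 for replicate number. For TNF in SoxC_KO, against 1 in the main analysis, 2 passed with the replicate block, and 0 without the libraries with liver transcripts or with only the 6 libraries compared. For TNF in control, against 0, there was 1 with quantile normalization, 2 with the replicate block and 1 without the libraries numbered 3. For the average TNF change, against 3, there was 1 with no filter on low values and 1 without the libraries with liver transcripts. Cybb was among these in each setting of the average change. The cause of these differences was not tested. The replicate block also called 4 members for the average TNF change. In the knockout comparisons and the difference between TNF changes, 0 members passed in each setting run, block included. Over all genes the block raised the number called from 53 to 505 for TNF in SoxC_KO, from 58 to 310 for TNF in control and from 212 to 941 for the average. For replicate number, 10 to 19 members passed, and no change of a member that passed against number 1 or 2 reversed in any setting. Members at or under 10 normalized counts rest on few read pairs. The 8 members that did not pass the filter were left out of the main fit, so differences in them were not tested there.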

Other observations

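Over both genotypes, 2 of 13 fibroblast genes, 1 of 9 interferon gamma genes and 1 of 8 osteoclast genes rose with TNF without the replicate block. The proteoglycan gene Dcn averaged 16294 normalized counts in SoxC_KO_TNF and 8302 in SoxC_KO, with 13514 in control_TNF and 9403 in control (average log2 change 0.75, SE 0.12, limma Benjamini-Hochberg adjusted p = 0.0121). Pdpn, the podoplanin gene of lining fibroblasts, averaged 19493 and 13500 in SoxC_KO cells with and without TNF, and 19292 and 13377 in control cells (0.53, SE 0.11, limma adjusted p = 0.0419). The average change was 1.40 for Gbp2 (SE 0.13, limma adjusted p = 0.000354) and 1.18 for Itgb3 (SE 0.15, limma adjusted p = 0.00291). With the block the interferon gamma count was 4 of 9, with Irf1 (0.76, limma adjusted p = 0.00139), Ifngr2 (0.52, adjusted p = 0.00519) and Jak2 (1.09, adjusted p = 0.0012) beside Gbp2. Of 13 fibroblast genes 2 then rose and 4 fell, those lower being Col1a1 (-0.56), Col3a1 (-0.40), Prg4 (-0.59) and Vim (-0.47). Of 4 neutrophil genes 2 rose with the block, S100a8 (1.27, limma adjusted p = 0.00051) and Camp (0.61, adjusted p = 0.0275), and of 41 further macrophage genes 4 rose, Clec4e (2.63), Tfec (1.18), Slc11a1 (0.93) and Irf5 (0.51). Hpx of the liver list rose (1.10) and Acta1 of the muscle list fell (-0.94) in that fit.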
